A study of Rattus norvegicus with 14 samples.

Results

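The 10 genes described here couple excitation of the skeletal muscle fiber to calcium release, and were measured in rat peritoneal mesotheliomas. They are Ryr1, Atp2a1, Casq1, Cacna1s, Cacng1, Jph1, Hrc, Jsrp1, Pvalb and Cav3. They were chosen by name, with earlier results of these data known. Each of the 10 had 1 probe set annotated to it alone, out of 14217 genes with such a probe set. The samples were 11 malignant peritoneal mesotheliomas and 3 control peritoneal tissues of male Wistar rats, each on 1 Affymetrix whole-genome rat array. The tumors came from different rats and had arisen after a single injection into the peritoneum of fibers suspended in artificial lung medium. The fibers were the multiwalled carbon nanotubes (MWCNTs) MWCNT B (2 tumors), MWCNT C (3 tumors) and MWCNT D (3 tumors), or amosite asbestos (3 tumors). By histology, 5 tumors were sarcomatoid (spindle-shaped cells), 3 were biphasic (a mixture) and 3 were epithelioid (epithelial-like cells). Sarcomatoid tumors occurred under every inducer, biphasic tumors were missing under MWCNT B, and epithelioid tumors were missing under MWCNT C. The 3 control tissues are labelled sham-treated, whereas the methods of the study speak of untreated rats. Tumors and control tissues were bulk pieces, so that fewer muscle cells and less RNA per muscle cell cannot be told apart.

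In a skeletal muscle fiber, an action potential runs down the transverse tubules, where the voltage sensor of the L-type calcium channel (Cacna1s and its partner Cacng1) touches the ryanodine receptor Ryr1 in the membrane of the sarcoplasmic reticulum. The receptor opens, calcium stored on calsequestrin (Casq1) leaves the reticulum, and the fiber contracts. The calcium pump Atp2a1 (SERCA1) then returns the calcium, with parvalbumin (Pvalb) as a soluble buffer in fast fibers. This junction is called the triad. Mesothelial cells, from which mesotheliomas arise, are not contractile fibers and have no triads.

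The array values are the authors' PLIER signals, given here as log2(signal + 1). A probe set was called at a Benjamini-Hochberg adjusted p below 0.05 (limma, over 31042 probe sets) with a fold change above 2 in either direction. All 10 genes were called lower in the tumors than in the controls, where 10.4% of all probe sets were called lower and 24.5% higher. Their median log2 fold change was -9.59, beside 0.34 for all probe sets. In each of the 10 genes every tumor lay below every control, which was the case for 14.1% of all probe sets. The exact two-sided permutation test over the 14 samples (364 splits, the smaller tail doubled) gave p = 0.0055 for each gene. That is the smallest value this test can give here, and it follows from the lack of overlap. The 10 probe sets together held 0.00349% to 0.00569% of the summed signal of a tumor array, against 6.96% to 7.18% of that of a control array. Probe sets can differ in signal at the same amount of RNA, so such shares are of signal and not of RNA.

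Marker genes of skeletal muscle were high in the control tissue. The 9 measured markers of the skeletal muscle fiber (such as Myh4 and Myh2, fast myosin heavy chains, Tnnt3, fast troponin T, and Myl1, a myosin light chain) were called lower in the tumors in 9 of 9 cases. They held 0.00737% to 0.0151% of the signal of a tumor array and 1.44% to 1.45% of that of a control array. The 4 largest log2 fold changes were -12.79 for Myh4, -10.64 for Myh2, -9.67 for Tnnt3 and -8.80 for Myl1. Myh1, named after its values were seen, fell least (-1.95, adjusted p = 4.4e-05 in limma). It stayed at 9.57 to 11.15 in the tumors, against 12.24 to 12.42 in the controls. Another probe set of Myh1 was not called (-0.77, adjusted p = 0.21). The markers of slow fibers fell as well, in 5 of 5 cases (Myl2 -14.20, Myh7 -9.51, Tnnt1 -7.35, Tnnc1 -7.22), though a second probe set of Myl2 had -0.63 and was not called. Of the mesothelial markers, several that define the cell type were low in the control peritoneum. Mesothelin (Msln) had 7.92 to 13.38 in the tumors and 3.50 to 6.64 in the controls, and Wt1 had 7.08 to 13.39 in the tumors and 3.26 to 5.54 in the controls. Of 7 measured mesothelial markers, 5 were called higher in the tumors and 0 lower, among them Krt18 (log2 fold change 8.25), Krt8 (7.67), Wt1 (7.11) and Msln (7.02). Pdpn (6.48 to 11.50 in the tumors, 7.84 to 8.59 in the controls) and Calb2 (7.04 to 7.72 in the tumors, 7.27 to 7.52 in the controls) were not called. The part of the muscle content of the control tissue in the differences described here was not tested. In MWCNT D replicate 2 (sarcomatoid) and amosite replicate 1 (epithelioid), pancreatic enzyme genes held 3.35% and 4.23% of the signal. All 10 genes stayed called lower without these 2 tumors.

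**Figure D1:**
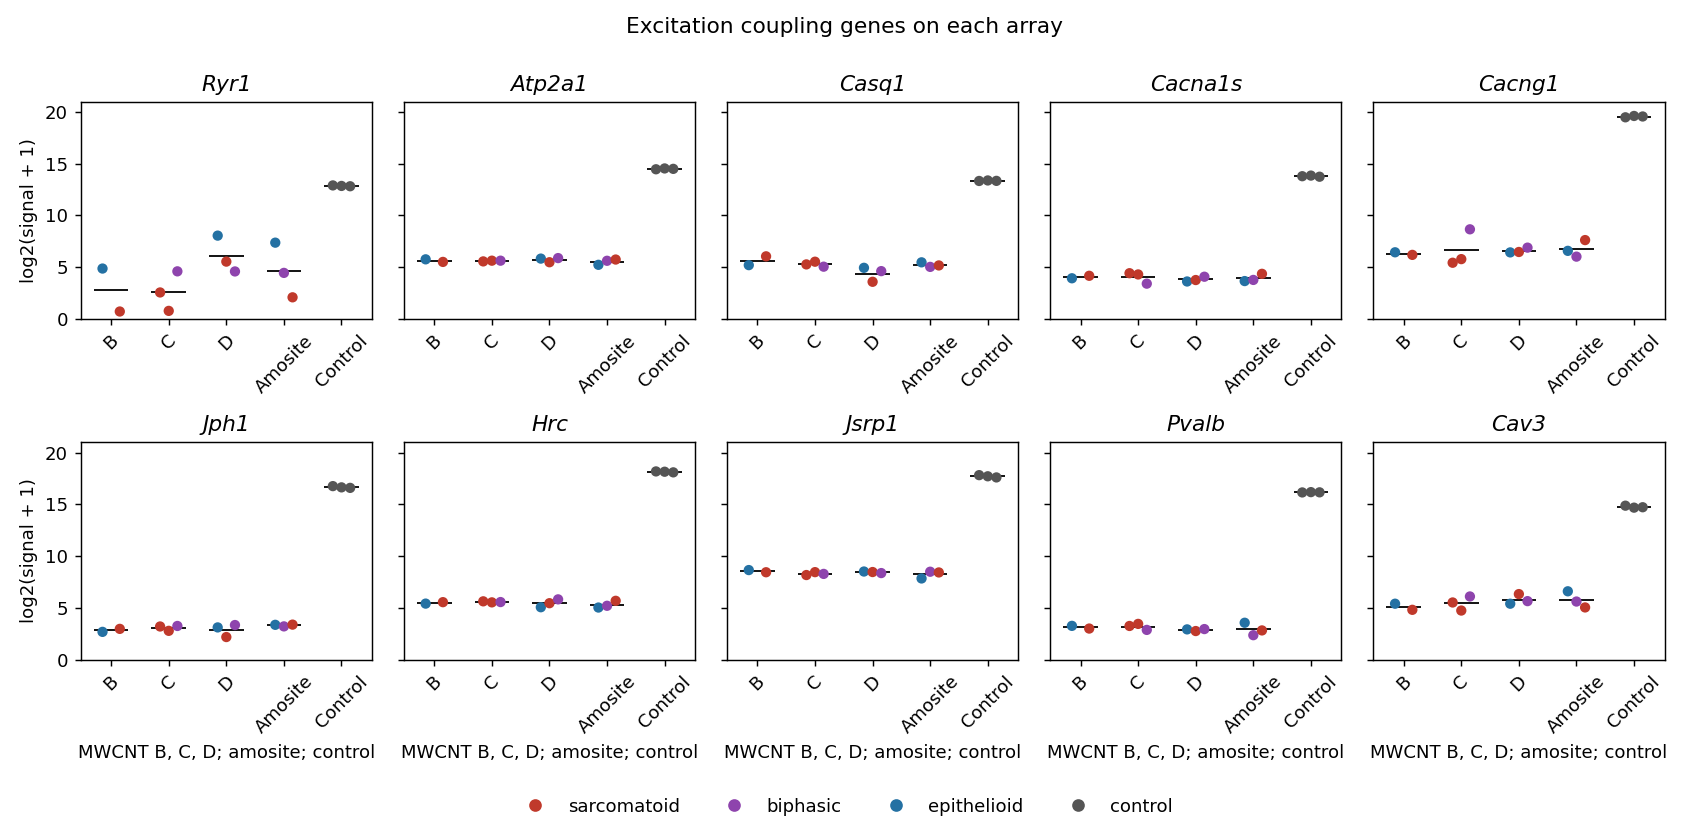
Log2(signal + 1) of the 10 excitation coupling genes on each array, by inducer, with controls on the right of each panel. Points are arrays coloured by tumor type and black lines are group means. In every panel the 3 controls lie above all 11 tumors, and Ryr1 has the widest spread among the tumors, 0.72 to 8.05.

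The calcium release channel and its voltage sensor were the first group. Ryr1, the ryanodine receptor of skeletal muscle, had a lowest, median and highest value of 0.72, 4.59 and 8.05 in the tumors, against 12.90, 12.85 and 12.82 in the 3 controls. The tumors were spread over 7.34 log2 units and the controls over 0.08, without overlap. The log2 fold change was -8.71 (standard error, SE, 1.33, adjusted p = 7.9e-05). Cacna1s, the pore and voltage sensor of the L-type channel, had 3.41, 3.93 and 4.42 as lowest, median and highest value in the tumors and 13.79, 13.85 and 13.74 in the controls. The tumors were tightly grouped, and the fold change was -9.84 (SE 0.20, adjusted p = 2e-14). Cacng1, the gamma subunit of the same channel, had 5.43, 6.44 and 8.66 in the tumors and 19.48, 19.61 and 19.56 in the controls, with a log2 fold change of -12.96 (SE 0.50, adjusted p = 4.1e-11). Its signal was the largest value of the whole array in each of the 3 controls. There this 1 probe set held 3.35% to 3.67% of the summed signal, while it held at most 0.0024% in a tumor. Signals of different probe sets are not on a common scale of RNA amount, so this rank does not make Cacng1 the most abundant RNA.

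Next came the proteins that hold the triad together. Jph1, junctophilin 1, which tethers the transverse tubule to the reticulum, had 2.19, 3.21 and 3.39 as lowest, median and highest value in the tumors and 16.77, 16.65 and 16.60 in the controls, a difference of -13.62 on the log2 scale (SE 0.22, adjusted p = 1.4e-15). Jsrp1 (JP-45), a reticulum membrane protein that binds the voltage sensor and calsequestrin, had 7.85, 8.45 and 8.66 in the tumors and 17.83, 17.72 and 17.61 in the controls. The highest tumor stayed 8.96 log2 units below the lowest control, and the fold change was -9.34 (SE 0.15, adjusted p = 1.1e-15). Cav3, the caveolin of muscle cells, which has a role in the formation of transverse tubules, had 4.75, 5.53 and 6.61 in the tumors and 14.88, 14.69 and 14.73 in the controls, a difference of -9.20 on the log2 scale (SE 0.34, adjusted p = 2.4e-11).

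RNA signals of the genes for calcium storage, reuptake and buffering were lower in the tumors as well. Casq1, the calsequestrin of skeletal muscle, binds calcium inside the reticulum. It had 3.59, 5.17 and 6.05 as lowest, median and highest value in the tumors and 13.33, 13.38 and 13.34 in the controls, a difference of -8.27 on the log2 scale (SE 0.35, adjusted p = 1.4e-10). Hrc, the histidine-rich calcium-binding protein of the reticulum, had 5.04, 5.54 and 5.83 in the tumors and 18.19, 18.16 and 18.10 in the controls. Tumors and controls were thus 12.27 log2 units apart at their nearest, and the fold change was -12.70 (SE 0.16, adjusted p = 2.6e-16). Atp2a1, the calcium pump of fast fibers, had 5.23, 5.63 and 5.88 in the tumors and 14.46, 14.54 and 14.50 in the controls, a difference of -8.87 on the log2 scale (SE 0.13, adjusted p = 6.7e-16). Pvalb had 2.37, 2.96 and 3.57 in the tumors and 16.16, 16.19 and 16.17 in the controls, with a log2 fold change of -13.14 (SE 0.21, adjusted p = 1.1e-15). On the linear scale, the highest tumor had 0.0148% of the mean control signal of Pvalb, 0.25% of that of Atp2a1 and 3.56% of that of Ryr1.

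Since signals of 2 to 5 log2 units lie near the lower end of these arrays, the size of such folds depends on how low signals are treated. With log2 signals below 5 raised to 5, the fold change was -11.67 for Jph1, -11.17 for Pvalb, -8.80 for Cacna1s and -7.32 for Ryr1, while it stayed at -12.96 for Cacng1 and -12.70 for Hrc. All 10 genes remained called lower with this floor.

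Promoter sequences were available for 8 of the 10 genes (not for Jph1 and Cacng1) in a RefSeq table of the rat assembly GRCr8, as windows of 250 bases before to 50 bases after the start site. They were searched for the letters CANNTG, the general form of the E-box that MyoD and its relatives bind in muscle genes, because the genes moved together. Shown are the 100 bases before the start site of the genes with an E-box in that stretch for the release channel, the pump, the voltage sensor and the muscle caveolin, 5′ to 3′ on the strand of the gene, with CANNTG in capitals. The windows lie at chr1:93551306-93551405 (minus strand) for Ryr1, chr1:190475411-190475510 (minus strand) for Atp2a1, chr13:50045568-50045667 (plus strand) for Cacna1s and chr4:147137893-147137992 (plus strand) for Cav3.
Ryr1: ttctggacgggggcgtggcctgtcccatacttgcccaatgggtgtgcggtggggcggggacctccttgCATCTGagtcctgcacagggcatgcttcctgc
Atp2a1: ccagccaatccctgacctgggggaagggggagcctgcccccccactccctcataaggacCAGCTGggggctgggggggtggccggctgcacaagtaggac
Cacna1s: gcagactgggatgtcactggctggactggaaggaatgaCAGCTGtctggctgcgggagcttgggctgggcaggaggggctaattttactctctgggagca
Cav3: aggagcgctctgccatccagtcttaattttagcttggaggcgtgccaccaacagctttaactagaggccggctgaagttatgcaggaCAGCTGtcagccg

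The form CAGCTG was found in 5 of these 8 promoters (Atp2a1, Casq1, Cacna1s, Jsrp1 and Cav3) and in 15.1% of 33469 promoters of the table. Its first base stood at -41 in Atp2a1, at -222 in Casq1, at -197 and -62 in Cacna1s, at -33 in Jsrp1 and at -13 in Cav3, counted from the start site of the table. For Jsrp1 and Pvalb this start site differs from the start of the gene in the RefSeq gene table, so that their windows may not be the main promoter, and neither is printed. The general form CANNTG, which includes CAGCTG, was found in 7 of 8 (all but Hrc) and in 72.1% of all promoters. The motif of the MEF2 factors, which also act in muscle genes, was found in 1 of 8 (Cav3) and in 3.29% of all promoters. All of these motifs read the same on both strands, and a match in letters is not a measured binding site. MyoD (Myod1) itself had log2 signals of 2.58 to 5.69 in the tumors and of 11.58 to 12.25 in the controls, without overlap (log2 fold change -8.19, SE 0.48, adjusted p = 7.2e-09). Myogenin (Myog), which acts with MyoD in muscle formation, was lower too (-6.06, SE 0.18, adjusted p = 1.6e-12).

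Grouping the tumors by inducer gave the same result for the 10 genes under each fiber. All 10 were called lower in MWCNT B tumors (9.39% of all probe sets were called lower), in MWCNT C tumors (10.2%), in MWCNT D tumors (10.2%) and in amosite tumors (9.51%). Their median log2 fold change was -9.90 for MWCNT B, -9.98 for MWCNT C, -9.62 for MWCNT D and -9.66 for amosite, while that of all probe sets was 0.31 to 0.36. The comparisons share the same 3 controls and are not independent of each other. Between MWCNT tumors (n = 8) and amosite tumors (n = 3), 0 of 10 genes were called and 0 had an unadjusted p below 0.05 (limma), and 0% of all probe sets were called. For Atp2a1 the difference between MWCNT and amosite tumors was 0.13 with a 95% interval of -0.16 to 0.43, and for Hrc it was 0.20 with an interval of -0.16 to 0.56. For Ryr1 it was -0.67, but the interval of -3.74 to 2.39 leaves room for large differences either way.

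**Figure D2:**
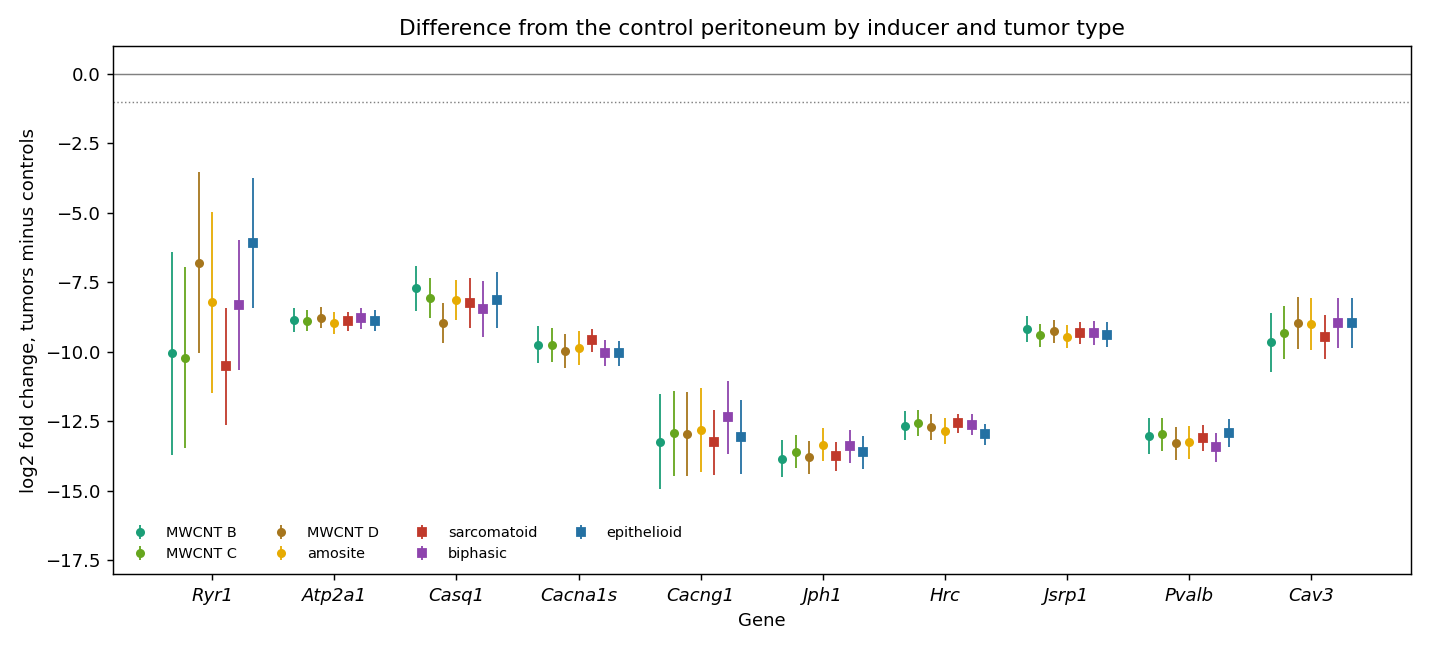
Log2 fold change between tumors and controls for the 10 genes, by inducer (circles) and by tumor type (squares), with 95% intervals from limma. The dotted line marks a log2 fold change of -1. All estimates lie between -13.84 and -6.09, and the intervals of Ryr1 are the widest.

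The tumor types also had all 10 genes called lower than in the controls. The median log2 fold change was -10.06 in sarcomatoid tumors (10.9% of all probe sets called lower), -9.69 in biphasic tumors (10.2%) and -9.72 in epithelioid tumors (9.64%). Among the tumor types themselves, 0 of 10 genes passed the test in any of the 3 comparisons. In limma, 0.760% of all probe sets were called between sarcomatoid and epithelioid tumors, 0.248% between sarcomatoid and biphasic tumors and 0% between biphasic and epithelioid tumors. An unadjusted p below 0.05 was found for 3, 2 and 1 of the 10 genes in these comparisons.

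Ryr1 was the gene that varied most among the tumors. It had 0.72, 0.78, 2.09, 2.56 and 5.54 in the sarcomatoid tumors, 4.45, 4.59 and 4.60 in the biphasic tumors, and 4.87, 7.37 and 8.05 in the epithelioid tumors. The sarcomatoid tumors lay lowest, apart from MWCNT D replicate 2 (5.54), which lay above the lowest epithelioid tumor. The log2 fold change between sarcomatoid and epithelioid tumors was -4.43 (95% interval -6.53 to -2.34, unadjusted p = 0.00058 in limma's moderated test across all probe sets), and with an adjusted p = 0.06 it did not pass the test. Over the alternatives the adjusted p ranged from 0.0065 to 0.44. The 0.44 came from a block on replicate number, which overlaps with tumor type. The difference passed without MWCNT D replicate 2 (-5.23, adjusted p = 0.0065) or without MWCNT B replicate 1 (-5.38, adjusted p = 0.029). Within each of the 3 inducers that gave both types, the sarcomatoid tumor had less Ryr1 than the epithelioid one, with 0.72 and 4.87 for MWCNT B, 5.54 and 8.05 for MWCNT D, and 2.09 and 7.37 for amosite. With the inducer as a covariate the fold change was -4.29 (adjusted p = 0.15). Of the 11 tumor values 8 lie below 5, and with the floor at 5 the difference was -1.70 (adjusted p = 0.18).

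Between sarcomatoid and biphasic tumors the log2 fold change of Ryr1 was -2.21 (95% interval -4.31 to -0.12, adjusted p = 0.5), and between biphasic and epithelioid tumors it was -2.22 (-4.56 to 0.12, adjusted p = 0.95). Neither passed the test after adjustment. Of the 5 sarcomatoid tumors 4 lay below all 3 biphasic tumors, and the biphasic tumors lay below all 3 epithelioid tumors. Values of other marker genes are given beside these. The mean log2 signal of the 7 markers was 7.79 to 10.19 in sarcomatoid, 10.76 to 11.86 in biphasic and 11.12 to 11.39 in epithelioid tumors. It was lowest of all tumors (7.79) in MWCNT D replicate 2, the sarcomatoid tumor with the most Ryr1, and 1 of the 7 (Krt19) was called between sarcomatoid and epithelioid tumors (log2 fold change -5.57, adjusted p = 0.04). The markers of the skeletal muscle fiber, by contrast, had overlapping means of 5.53 to 6.11 in sarcomatoid, 5.78 to 5.89 in biphasic and 5.63 to 5.83 in epithelioid tumors. The part of either in the Ryr1 values was not tested.

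Between sarcomatoid and epithelioid tumors, the other 9 genes had log2 differences of -0.51 (Cav3) to 0.46 (Cacna1s), and none passed the test. The difference was 0.46 for Cacna1s (95% interval 0.06 to 0.87, adjusted p = 0.31) and 0.40 for Hrc (0.06 to 0.74, adjusted p = 0.3). The narrowest intervals belonged to Atp2a1 and Hrc, and that of Atp2a1 was -0.36 to 0.32. For Cacng1 (-1.36 to 0.99), Cav3 (-1.31 to 0.29) and Casq1 (-0.98 to 0.82) the intervals reached or neared a fold change of 2.

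**Figure D3:**
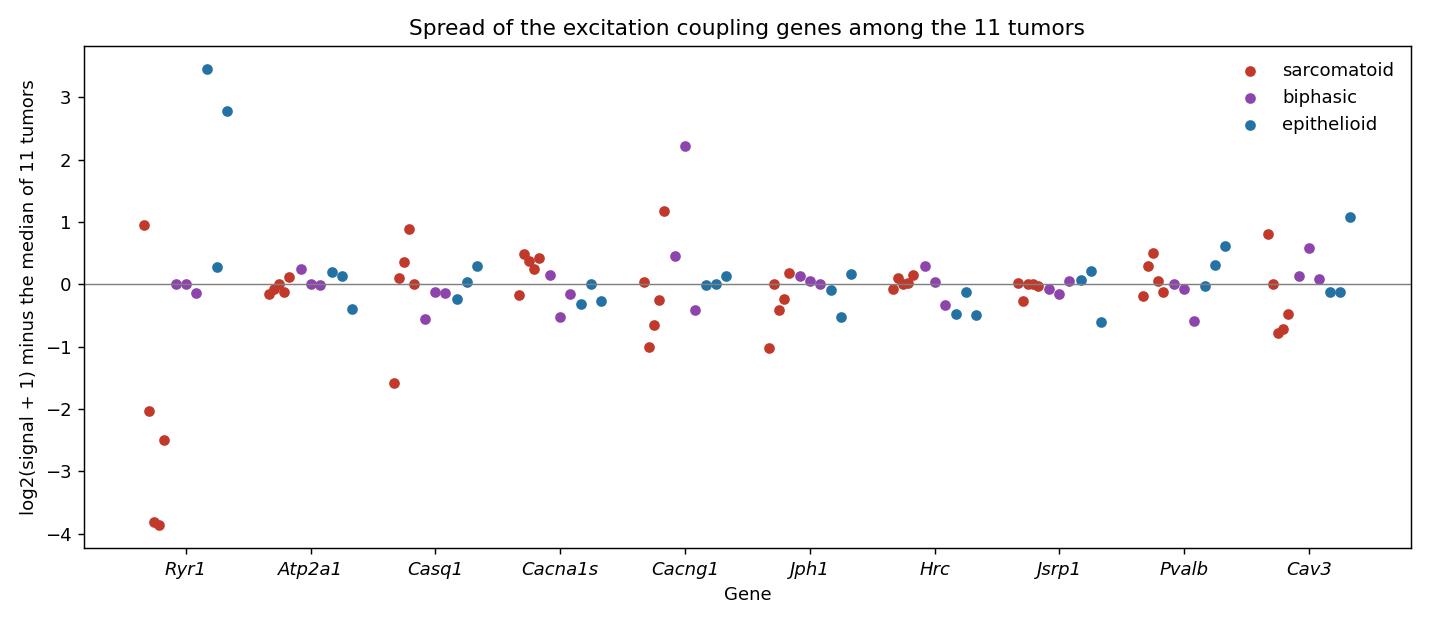
Log2(signal + 1) of the 10 genes in each tumor minus the median of the 11 tumors, coloured by tumor type. Ryr1 spans 7.34 log2 units and its 4 lowest points are sarcomatoid tumors, while Atp2a1 spans 0.65.

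Other genes of excitation coupling in skeletal muscle fell with the 10. Of 26 measured partners, 21 were called lower in the tumors, 1 was called higher and 4 did not pass the test (median log2 fold change -2.80). Triadin (Trdn), which links calsequestrin to the ryanodine receptor, had 4.41, 4.53 and 4.89 as lowest, median and highest value in the tumors and 16.78, 16.72 and 16.77 in the controls, a difference of -12.17 on the log2 scale (SE 0.12, adjusted p = 2.4e-17). Sarcalumenin (Srl), a calcium-binding protein of the reticulum, had a log2 fold change of -9.24, Sypl2 (a mitsugumin), a membrane protein of the triad, -7.81, and Stac3, an adaptor needed for the voltage sensor to trigger release, -6.80. The adjusted p of these 3 genes ranged from 5.1e-16 to 1.1e-11. The 4 that did not pass were the receptor-bound immunophilins Fkbp1a (0.34, adjusted p = 0.09) and Fkbp1b (1.29, adjusted p = 0.31) and the acetylcholine receptor subunits Chrna1 (-0.82, adjusted p = 0.016, below the fold threshold) and Chrng (-0.48, adjusted p = 0.084). These 4 and Asph, the partner called higher, were named after their values were seen.

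Paralogs of the 10 genes, many of which serve other tissues, showed no common direction. Of 18 measured, 3 were called lower, 3 were called higher and 12 did not pass the test (median log2 fold change 0.23, near the 0.34 of all probe sets). Of all probe sets, 10.4% were called lower and 24.5% higher. The counts depend on how genes were listed, and the calbindins Calb1 and Calb2 stood here. Cacng6, a further gamma subunit named after its value was seen, stood with the partners and was called lower (-3.94, adjusted p = 5.9e-08). The calsequestrin of heart and slow fibers, Casq2, was lower (-4.47, SE 0.34, adjusted p = 1.1e-07), as was junctophilin 2 (Jph2, -3.76, SE 0.61, adjusted p = 0.00013). Jph2 had 6.22, 8.29 and 9.48 as lowest, median and highest value in the tumors, against 12.13, 12.01 and 11.89 in the controls. The third lower paralog was the T-type channel Cacna1h (adjusted p = 0.00096), whose fold change was just past the threshold of 2. Among the higher ones, the L-type channel of heart and smooth muscle, Cacna1c, was raised by 1.58 on the log2 scale (adjusted p = 0.00093). Calbindin (Calb1) was raised by 3.05 (adjusted p = 9e-05), and its call ended with the floor at 5. Second probe sets of Cacna1h (-0.68, adjusted p = 0.47) and Cacna1c (0.13, adjusted p = 0.66) were not called. Both genes were named after their values were seen. The other ryanodine receptors did not pass the test, with -0.22 for Ryr2 (adjusted p = 0.46) and -0.68 for Ryr3 (adjusted p = 0.39). Neither did caveolin 1 (Cav1, 0.83, adjusted p = 0.18), which many cell types carry.

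Atp2a2 (SERCA2), the pump of slow fibers, heart and most other cells, had probe sets that moved in opposite directions. Its brightest probe set on average was higher in tumors, at 11.74 ± 0.44 (SD) over the 11 tumors and 9.84 ± 0.12 over the 3 controls (log2 fold change 1.91, adjusted p = 2.6e-05 in limma). A second probe set was lower, at 9.46 ± 0.39 (SD) over the tumors and 13.02 ± 0.28 over the controls (-3.56, adjusted p = 3.6e-08 in limma). The remaining 3 were not called. Asph, whose gene encodes the triad protein junctin as well as an aspartyl hydroxylase of many tissues, showed the same split, with 2 probe sets called higher (1.77 and 1.85) and 2 called lower (-7.95 and -8.23). The files do not say which transcripts of the 2 genes these probe sets match, and the direction of either gene depends on the probe set taken.

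**Figure D4:**
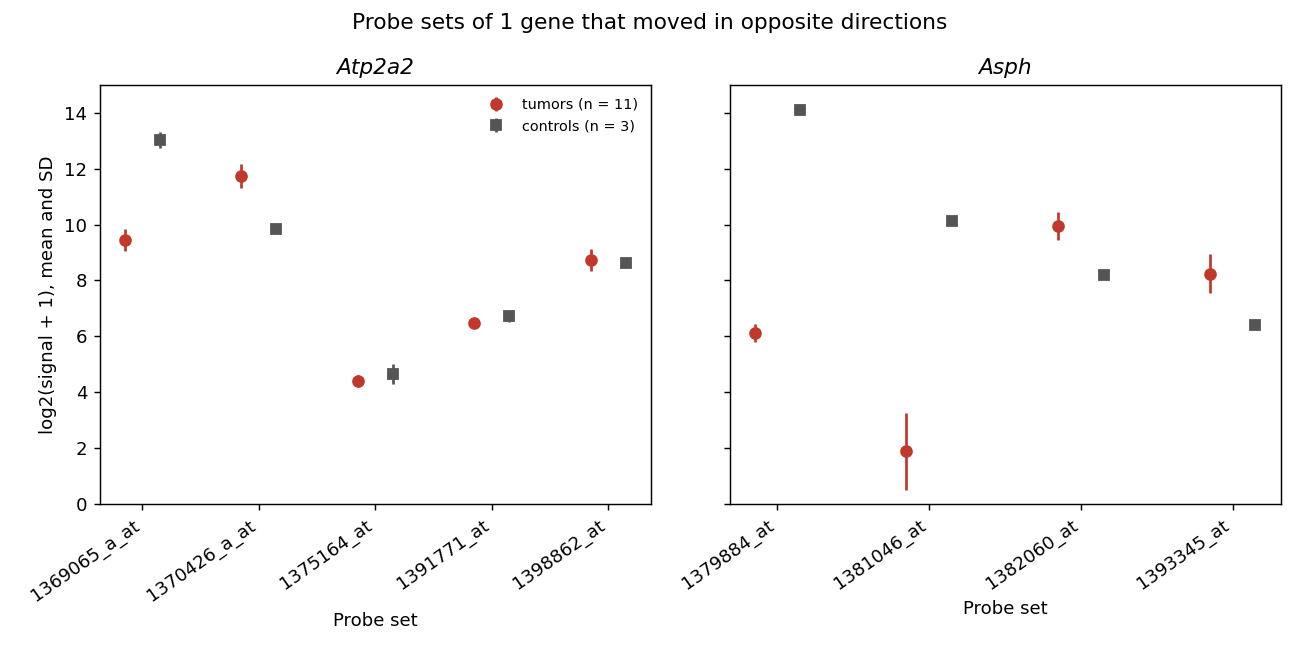
Mean log2(signal + 1) with SD of every single-gene probe set of Atp2a2 and Asph in tumors (red circles, n = 11) and controls (grey squares, n = 3). For each gene at least 1 probe set is higher in tumors and at least 1 is lower.

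Calcium handling genes outside the triad were mixed as well. Of 17 measured, 3 were called lower and 5 higher (median log2 fold change 0.28), whereas median centring of the arrays gave 4 lower and 4 higher. Of all probe sets, 10.4% were called lower and 24.5% higher on the values as deposited. The sodium-calcium exchanger of skeletal muscle and brain, Slc8a3, was lower (-6.35, adjusted p = 6.3e-14), and so was Stim1, the calcium sensor of store-operated entry (-2.12, adjusted p = 2.2e-05). The inositol trisphosphate receptor Itpr3, a release channel of non-muscle cells, had 9.38, 10.34 and 11.39 as lowest, median and highest value in the tumors, against 5.44, 6.28 and 6.32 in the controls. The groups did not overlap, and the log2 fold change was 4.24 (SE 0.37, adjusted p = 4.9e-07). Orai2, a subunit of the store-operated channel, was higher too (2.61, adjusted p = 0.0012), while its second probe set was not called (-0.05, adjusted p = 0.84). The related subunit Orai1, named after its value was seen, was called lower (-2.05, adjusted p = 1.4e-05).

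The genes with profiles most like the mean of the 10 over the 14 arrays were Tmem52, Smtnl1, Dusp13b, Lmod3 and Myom1, by the root mean square difference of profiles each centred on its own mean. This difference was 0.230 log2 units for Tmem52, 0.286 for Smtnl1, 0.299 for Dusp13b, 0.327 for Lmod3 and 0.366 for Myom1. Tmem52 averaged 0.00 in the tumors, at the bottom of the scale, and 10.84 in the controls. Myom1 (myomesin 1, of the sarcomere's M band) averaged 6.53 in the tumors and 17.66 in the controls. Lmod3 (leiomodin 3, a protein of the thin filaments) averaged 5.40 in the tumors and 15.67 in the controls.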

How the data were processed

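Total RNA was extracted by the authors, hybridized to 1 array a sample and summarized as PLIER intensities, for which the Transcriptome Analysis Console served (submitters' processing notes). The deposited table holds 1 linear intensity for each array and each of its 31099 probe sets. Values lie between 4.12e-05 and 802576, and detection calls are not given. The number of arrays limits the precision. Removal of 57 Affymetrix control probe sets left 31042, of which 20826 had 1 gene symbol in the array annotation, 436 several and 9780 none. By gene ID, 20758 of the 20826 were found in a RefSeq table of GRCr8. No scan date or batch was given in the sources used here.

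Groups came from the sample labels. Log2(signal + 1) was tested with limma 3.58.1 in R 4.3.3, with p-values adjusted over all probe sets, in 12 comparisons from fits of tumors and controls, of the 5 inducer groups, of the 4 tumor type groups and of MWCNT, amosite and control. The study's thresholds of fold change and false discovery rate were kept. Array medians were 129.1 to 154.8 in tumors and 97.19 to 104.5 in controls. Over all probe sets the log2 fold change between tumors and controls had a median of 0.34, or -0.10 after median centring, and the share of calls that were higher was 70.2% as deposited, 46.6% centred and 52.4% after quantile normalization. Fold changes are given on the log2(signal + 1) scale of the values as deposited, where the added 1 makes the ratio of very low signals smaller.

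A gene is represented by its single-gene probe set with the highest mean over the 14 arrays. Named are all 10 genes, the 4 called genes with the largest fold change of each list, and the 5 nearest profiles. The 10 genes and the lists (26 partners, 18 paralogs, 17 calcium handling genes, and markers of skeletal, slow, cardiac, smooth and forming muscle, mesothelium, adipocytes and pancreas) were chosen with earlier results of these data known. Other marker lists gave 1 of 5 cardiac genes called higher (Mybpc3, 1.37) and 0 lower, 1 of 5 smooth muscle genes higher (Acta2, 3.07) and 1 lower (Smtn, -1.33), 3 of 4 genes of forming muscle lower (Myod1, Myog and Myh3, the last -3.31), 0 of 5 adipocyte genes called, and 1 of 6 pancreatic genes higher (Cela2a, 7.21). Calb2 is on both the paralog and the mesothelial list. Alternatives were quantile normalization, median centring, a pseudocount of 16, a floor at 5, a filter on mean log2 signals under 6, trend and robust moderation, a fit of the groups compared alone, a replicate block, the mean of all probe sets, the other classification as covariate, and leaving out arrays. Figures used matplotlib 3.10.9 in Python 3.11.15.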

Additional observations from a re-analysis of the deposited data

Results flagged for a closer look

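For 41 genes (the 10 genes and the named genes of the lists), the MWCNT tumors and the sarcomatoid tumors were checked for 1 array that stands apart from the rest of its group, in 82 groups in all. Chance marks about 1 in 20 such groups, and 15 were found, 2 of them in the 10 genes. The 15 are not independent and cannot be set against that rate, because sarcomatoid and MWCNT tumors share arrays. Krt8, Wt1, Msln and Cela2a were each marked in both groups for the same array.

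Cacng1 was highest in MWCNT C replicate 3 (8.66), against 5.43 to 6.89 in the other MWCNT tumors. Jsrp1 was lowest in MWCNT C replicate 1 (8.18), against 8.43 to 8.47 in the other sarcomatoid tumors, a narrow range. Both stayed far below the controls.

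MWCNT D replicate 2 stood apart in several genes. Its Msln (7.92) lay below 11.11 to 11.61 in the other sarcomatoid and 11.11 to 13.38 in the other MWCNT tumors, its Wt1 (7.08) below 10.73 to 11.59 and 10.73 to 12.06, and its Krt8 (7.93) below 10.76 to 11.90 and 11.36 to 13.89. Its Cela2a, a pancreatic elastase, lay at 16.15, above 6.06 to 6.43 in the other sarcomatoid and 5.42 to 6.43 in the other MWCNT tumors. Its Atp2a2 was lowest among sarcomatoid tumors (10.79, others 11.55 to 11.81).

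MWCNT D replicate 1 was highest among MWCNT tumors for Casq2 (8.60, others 6.65 to 7.34), slow troponin C (Tnnc1, 6.73, others 5.41 to 5.77) and Mybpc3 (7.52, others 6.99 to 7.23). It also had the highest Ryr1 of all tumors (8.05). MWCNT B replicate 1 was highest for Sypl2 (5.91, others 5.53 to 5.70).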

How the results depend on the processing

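Against the controls, the direction and the call of the 10 genes were kept in 1904 of 1904 fold changes recomputed under the alternatives, and 8 to 10 genes were called per comparison, 8 being all that a filter on mean log2 signals under 6 left. Between sarcomatoid and epithelioid tumors, 1 gene (Ryr1) instead of 0 was called with that filter (-4.43, adjusted p = 0.049) and without MWCNT D replicate 2 and amosite replicate 1 together (-4.93, adjusted p = 0.034), and leaving out 1 array gave 0 to 1 (1 without MWCNT D replicate 2 or MWCNT B replicate 1). Between sarcomatoid and biphasic tumors, Ryr1 changed sign at the floor of 5 (0.11, adjusted p = 1), where most of its values are raised to 5. Atp2a2 changed sign with the mean of all its probe sets (-0.41, adjusted p = 0.033). Of 740 values of 31 named list genes, 729 kept direction and call. Mybpc3 fell below the fold threshold after quantile normalization (0.97) or centring (0.92), Calb1 ended with a pseudocount of 16 (0.82), Cela2a ended at the floor, with that pseudocount and without control replicate 1 or 2, and Myh3 ended without control replicate 1 (adjusted p = 0.24) or 3 (adjusted p = 0.16).

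Correlations between arrays of different groups were used to look for pairing by replicate number. Same-numbered arrays had correlations of -0.29 to 0.39 (median 0.02), and differently numbered ones had -0.45 to 0.45. Not every array correlated best with its own number: 8 of 14 did, where 4.67 would if the number carried nothing. The number overlaps with tumor type, so these values cannot decide whether it pairs the samples. With the replicate block, 10868 instead of 10846 probe sets were called between tumors and controls, and 10 of 10 genes stayed called in each comparison with the controls. Ryr1 had -4.29 between sarcomatoid and epithelioid tumors (adjusted p = 0.44). All epithelioid tumors carry the same replicate number, and most sarcomatoid tumors carry another. The block is thus largely confounded with this comparison and cannot decide it. Without detection calls, a signal near the lower end cannot be told from background.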

Other observations

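Some paralogs and muscle genes were high in single tumors only. These were picked after their values were seen, and none is a comparison between groups. Oncomodulin (Ocm), the other parvalbumin, had 12.62 in amosite replicate 3, 10.37 in amosite replicate 2, 8.69 in MWCNT C replicate 1 and 7.10 in MWCNT B replicate 1, with 0.00 to 5.72 in the other 7 tumors and 0.01, 4.03 and 0.01 in the controls (log2 fold change of all tumors 4.20, adjusted p = 0.12 in limma). Amosite replicate 1 had 15.01 for cardiac troponin I (Tnni3), where the other 10 tumors had 4.43 to 6.14 and the controls 7.43 to 7.79. MWCNT D replicate 2 had 11.10 for Atp2a3, the calcium pump of blood and epithelial cells, where the other tumors had 5.50 to 7.73 and the controls 7.06 to 7.39. Amosite replicate 1 and MWCNT D replicate 2 are the tumors with pancreatic enzyme signal, and its part in these values was not tested.

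The 3 controls were close for the 10 genes, with ranges of 0.03 (Pvalb) to 0.22 (Jsrp1) log2 units. The slow fiber markers, by contrast, held 0.599% to 0.966% of the signal of a control array. The mean of the genes of forming muscle was 8.41 to 10.77 in the controls. Among these genes, Myh3 had 11.51, 3.11 and 10.29 in control replicates 1, 2 and 3. The others were closer in the controls, with 11.58 to 12.25 for Myod1, 12.20 to 12.60 for Myog and 6.52 to 6.88 for Myh8.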
